A study of Mus musculus with 18 samples.

Results

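The 10 genes described here belong to the myostatin and activin pathway or stand beside it: the ligand genes Mstn and Inhba, the antagonist genes Fst and Fstl3, the receptor genes Acvr2a, Acvr2b and Acvr1b, the signalling genes Smad3 and Smad7, and Mss51. They were chosen by symbol, and all 10 were found among the 41388 Ensembl genes listed for each library. The libraries were made from total RNA after removal of ribosomal RNA and came from 4 groups of mice aged 12 weeks, kept on chow and fasted for 4 h. The first was soleus of knockout mice (4 libraries), in which a floxed Site-1 Protease allele was combined with HSACre, a Cre driven by the human skeletal actin promoter and active in skeletal muscle fibres, so that other cells of the muscle kept the gene. The second was soleus of Site-1 Protease floxed control mice without Cre (5 libraries). The other two were gastrocnemius of knockout (4 libraries) and of floxed control mice (5 libraries). All groups carried the floxed allele, and no group carried Cre alone, so loss of Site-1 Protease and an effect of Cre cannot be told apart. The titles were followed for group sizes, although the series text gives 4 per group.

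Myostatin is a secreted growth factor made by muscle fibres that limits muscle size, and activin A, a dimer of the Inhba product, acts through the same receptors. Both bind a type II receptor (Acvr2a or Acvr2b), which activates a type I receptor such as Acvr1b. That receptor phosphorylates SMAD2 and SMAD3, which enter the nucleus with SMAD4, while SMAD7 is an inhibitory SMAD that is itself induced by the pathway. Follistatin (Fst) and follistatin-like 3 (Fstl3) bind the ligands outside the cell and block them. Mss51 encodes a muscle-enriched mitochondrial protein whose loss raises respiration in mouse muscle, and its expression responds to myostatin and TGF-beta signalling in mouse muscle cells.

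Libraries held 39.0 to 78.2 M counts. Mbtps1, the gene of Site-1 Protease, was not lower in libraries labelled knockout: it lay at 31 to 36.3 CPM in labelled-knockout soleus against 30.5 to 34.4 CPM in control soleus, and at 34.7 to 42.8 CPM in labelled-knockout gastrocnemius against 29.6 to 34.9 CPM in control gastrocnemius. Which part of Mbtps1 is floxed was not stated, and a count summed over a gene need not show the loss of a part, so all directions below rest on the labels. The muscles matched their names by fibre markers. The summed level of 10 slow-fibre genes was 13500 to 25300 CPM in soleus libraries and 465 to 1510 CPM in gastrocnemius libraries, and that of 10 fast-fibre genes was 32200 to 43700 CPM in soleus and 136000 to 167000 CPM in gastrocnemius. No label ties a library to a mouse, so p-values measure the spread between these libraries. The soleus title numbers equal the gastrocnemius numbers plus 33 with the same genotype in 9 of 9 cases, but no label says that such libraries share a mouse, and the tests between muscles treat all 18 as separate. Levels are given as CPM, the count scaled to a common library size by TMM, a gene was called at an adjusted p under 0.05 over all genes tested, and all 10 genes passed the low-count filter in every comparison.

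Mstn and Mss51 lay below every control in the labelled-knockout gastrocnemius, and both were near 1 CPM in the soleus of either genotype. Because these 2 genes shared this pattern, the 250 bases before their annotated starts are shown. Capitals mark every match, on either strand, to 4 motifs. The CAGA element bound by SMAD proteins was searched as CAGAC. The E-box bound by MyoD-family factors was searched as CANNTG. The TATA box was searched as TATAAA, and the palindromic SMAD-binding element as GTCTAGAC. The motifs were chosen with these sequences in view. Both sequences are from RefSeq on GRCm38.p6, written 5′ to 3′ on the gene's strand; that of Mstn spans chr1:53061390-53061639 (plus strand) and that of Mss51 chr14:20496902-20497151 (minus strand).
Mstn: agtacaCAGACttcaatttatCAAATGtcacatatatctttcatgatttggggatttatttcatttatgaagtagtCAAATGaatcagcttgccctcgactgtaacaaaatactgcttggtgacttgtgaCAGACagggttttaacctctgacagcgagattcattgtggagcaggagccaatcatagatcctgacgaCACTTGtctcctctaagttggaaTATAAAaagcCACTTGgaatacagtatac
Mss51: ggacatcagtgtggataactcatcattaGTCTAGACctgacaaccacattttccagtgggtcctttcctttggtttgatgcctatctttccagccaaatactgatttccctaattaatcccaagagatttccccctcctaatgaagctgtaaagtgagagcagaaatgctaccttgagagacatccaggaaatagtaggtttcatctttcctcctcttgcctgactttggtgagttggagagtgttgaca
The window of Mss51 held 1 palindromic SMAD-binding element, at positions -222 to -215 from the start, and no match to the other 3 motifs. The window of Mstn held no palindromic element, 2 CAGA elements, 4 E-boxes and 1 TATA box, which stood at -29 to -24. In these windows no marked match overlapped another. Of 32851 promoter windows of the same length, 0.167% held the palindromic element, 42.2% a CAGA element, 66.2% an E-box and 12.4% a TATA box. Windows were also listed for Inhba, Fstl3, Acvr2a, Acvr2b, Acvr1b and Smad3, and none of these held the palindromic element. A match in such a window is a stretch of letters and not a measured binding site.

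Mstn (ENSMUSG00000026100, GRCm38 chromosome 1, 53061640 to 53068079, plus strand, 3 exons) was the only one of the 10 genes called between genotypes in the gastrocnemius. It lay at 47.4, 42.7, 27.8 and 48.2 CPM in labelled-knockout gastrocnemius libraries 2, 6, 7 and 9, against 77, 89, 78.6, 78 and 108 CPM in control libraries 1, 3, 4, 5 and 8. Every labelled-knockout library was below every control, and library 7 was the lowest. The log2 fold change was -1.05 (SE 0.17, edgeR adjusted p = 0.0115), a level 2.07-fold lower. The call held without any 1 of the 9 libraries (adjusted p = 0.00121 to 0.0446) and was lost (adjusted p = 0.0937) when both muscles were fitted together. Of 16393 genes tested in the gastrocnemius, 3.78% were called (1.77% higher and 2.01% lower), against 1 of the 10 genes here. Their median log2 fold change was -0.18, beside 0.02 over all genes tested. At an unadjusted edgeR p under 0.05 were Mstn, Mss51, Acvr1b, Acvr2b, Smad3 and Acvr2a, beside 18.6% of all genes. The 10 genes were chosen with earlier results of these data known.

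In the soleus Mstn was expressed at a level near 1 CPM in both genotypes. Labelled-knockout libraries 35, 39, 40 and 42 held 1.19, 1.69, 1.45 and 0.194 CPM, and control libraries 34, 36, 37, 38 and 41 held 1.46, 0.944, 0.373, 1.08 and 1.32 CPM. The lowest library of each genotype lay well below the others, and the groups overlapped. The counts behind these levels were 12 to 122 per library. The log2 fold change was 0.15 (SE 0.52, 95% interval -0.88 to 1.17, adjusted p = 0.966), an interval that spans 0 widely. The same muscle gave no call for any of the 10 genes by edgeR, and none by DESeq2 or limma voom. By edgeR 0.0553% of 18087 genes were called there. Unadjusted edgeR p was under 0.05 for Inhba and Fst only, beside 8.19% of all genes.

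Mss51 (ENSMUSG00000021815, GRCm38 chromosome 14, 20482864 to 20496901, minus strand, 7 exons) had the largest knockout fold change of the 10 genes in the gastrocnemius, but missed the threshold. Its level was 45.7, 36.3, 11.8 and 59.3 CPM in labelled-knockout gastrocnemius libraries 2, 6, 7 and 9, against 119, 87.9, 143, 130 and 118 CPM in control libraries 1, 3, 4, 5 and 8. The groups did not overlap, and library 7 was again the lowest, with 478 reads against 1543 to 3124 in the other 3 labelled-knockout libraries. The log2 fold change was -1.64 (SE 0.43), a level 3.11-fold lower, and it missed the threshold (edgeR adjusted p = 0.0892). It passed with DESeq2 (adjusted p = 0.00311), with limma voom (0.017) and when both muscles were fitted together (0.0158). It passed as well without labelled-knockout library 7 (log2 fold change -1.34, adjusted p = 0.0179), and it missed the threshold without any other single library (up to 0.214).

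Library 7 also stood apart in markers of other cells. Its summed level of 6 macrophage markers was 202 CPM, against 108 to 115 CPM in the other labelled-knockout gastrocnemius libraries and 82.7 to 118 CPM in controls, and that of 7 fibroblast markers was 5330 CPM, against 3490 to 3700 CPM and 2520 to 4410 CPM. No member of either list was called in the gastrocnemius, and 5 of 6 macrophage and 7 of 7 fibroblast markers had positive fold changes. Summed fast-fibre markers were 136000 to 149000 CPM in labelled-knockout and 142000 to 167000 CPM in control gastrocnemius, with 9 of 10 members negative (median log2 fold change -0.18) and none called. Summed slow-fibre markers were 465 to 999 CPM in labelled-knockout and 979 to 1510 CPM in control gastrocnemius. Only 1 of their 10 members had a positive fold change (median log2 fold change -0.62, beside 0.02 over all genes). Of the 10, 1 was called, Myl2, which was lower (log2 fold change -0.95, SE 0.16, adjusted p = 0.0113). Without library 7 the log2 fold change of Mstn was -0.90. The part of these markers in the lower Mstn and Mss51 was not tested. In bulk RNA, fewer cells of a type and less RNA per cell cannot be told apart.

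**Figure D1:**
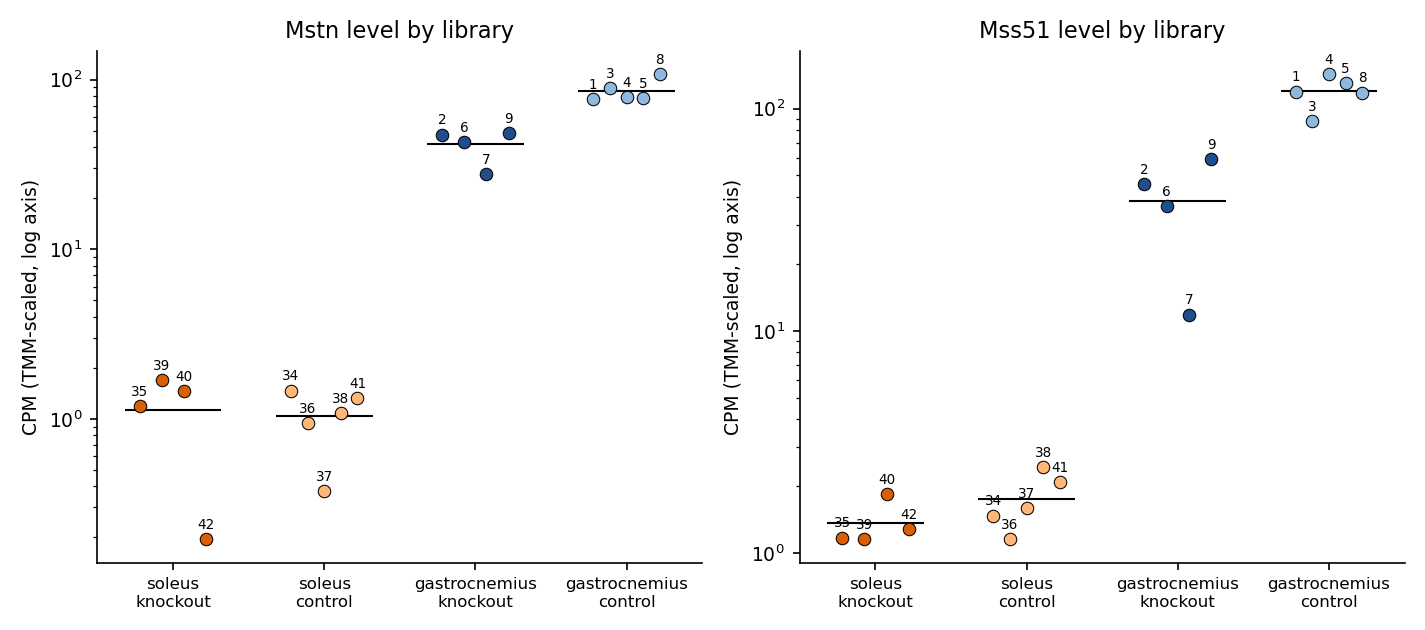
Levels of Mstn (left) and Mss51 (right) in CPM on a log axis, by group; points are single libraries with their numbers and bars are group means. Labelled-knockout gastrocnemius libraries (27.8 to 48.2 CPM for Mstn, 11.8 to 59.3 CPM for Mss51) lie below every control gastrocnemius library, and all soleus libraries lie at or below 2.43 CPM.

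In the soleus Mss51 was at 1.17, 1.15, 1.84 and 1.28 CPM in labelled-knockout libraries 35, 39, 40 and 42, against 1.47, 1.15, 1.59, 2.43 and 2.08 CPM in control libraries 34, 36, 37, 38 and 41. The groups overlapped, and the log2 fold change of -0.34 (SE 0.24, 95% interval -0.82 to 0.13, adjusted p = 0.767) missed the threshold. The knockout effect in soleus minus that in gastrocnemius was 1.30 on the log2 scale for Mss51 (SE 0.54, unadjusted p = 0.0288) and 1.22 for Mstn (SE 0.55, unadjusted p = 0.0438). Neither passed over all genes (edgeR adjusted p = 0.861 and 0.907), so these data do not show that the knockout effect differed between the muscles. No member was called in that comparison, where 0.0703% of 18494 genes were, nor by DESeq2 or limma voom. At an unadjusted p under 0.05 the members were these 2, beside 5.4% of all genes.

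The difference between the muscles was far larger than that between the genotypes. In controls Mstn averaged 1.04 ± 0.421 CPM in soleus and 86.1 ± 13.1 CPM in gastrocnemius (SD, n = 5 each), or 85.1-fold lower in soleus (log2 fold change -6.41, SE 0.40, adjusted p = 4e-09). In libraries labelled knockout it averaged 1.13 ± 0.658 CPM in soleus and 41.5 ± 9.49 CPM in gastrocnemius (SD, n = 4 each), 36.5-fold lower in soleus (log2 fold change -5.19, SE 0.43, adjusted p = 1.92e-07). Mss51 averaged 1.74 ± 0.508 CPM in control soleus and 120 ± 20.5 CPM in control gastrocnemius (SD, n = 5 each), 69.5-fold lower in soleus (log2 fold change -6.12, SE 0.39, adjusted p = 5.22e-09). In libraries labelled knockout Mss51 averaged 1.36 ± 0.326 CPM in soleus and 38.3 ± 20 CPM in gastrocnemius (SD, n = 4 each), 28.3-fold lower in soleus (log2 fold change -4.82, SE 0.43, adjusted p = 3.84e-07). Of the 10 fast-fibre markers 8 were called lower and 1 higher in control soleus, with a median log2 fold change of -1.87, and their part in the gaps of Mstn and Mss51 was not tested. In all, 6 of the 10 genes were called between the muscles in controls (1 higher and 5 lower in soleus), where 49.3% of all genes were called (27.4% higher and 21.9% lower). In libraries labelled knockout 6 were called as well (1 higher and 5 lower), beside 37.8% of all genes (19.2% higher and 18.5% lower).

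Mstn and Mss51 were each other's closest gene by the root mean square difference between profiles. By Pearson r neither was among the 5 genes closest to the other. Over the 18 libraries, the root mean square difference between their log2 levels, each centred on its own mean, was 0.602, the smallest that either had with any of 12029 other genes of mean log2 CPM of at least 1. Their own SDs over these libraries were 2.83 and 2.73, most of which is the gap between the muscles that all such profiles share. For Mstn the next were Actn3, the fast-fibre alpha-actinin (0.607), Smox, spermine oxidase (0.647), Pvalb, the fast-fibre calcium buffer parvalbumin (0.673), and Amd1, the S-adenosylmethionine decarboxylase of polyamine synthesis (0.706). For Mss51 they were 1700001O22Rik (0.603), Odf3l2 (0.684), Smox (0.687) and Amd1 (0.699). Amd1 shares sequence with its copy Amd2, and its level is uncertain to the extent that reads were split between them.

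Within a single muscle neither gene was the closest to the other, although their root mean square difference was no larger than over 18 libraries. This comparison was added after the first was seen, and is given here first for the 9 gastrocnemius libraries. There Mss51 ranked 5145 of 12023 genes for Mstn (root mean square difference 0.59), with SDs of 1.16 for Mss51 and 0.62 for Mstn on the log2 scale, while Mstn ranked 10 for Mss51. Within the 9 soleus libraries, where both genes were near 1 CPM, Mss51 ranked 7768 of 12021 genes for Mstn and Mstn ranked 11760 for Mss51 (root mean square difference 0.569). The closeness in rank over 18 libraries was thus not seen there. The gene closest to Mstn in the gastrocnemius was Amd1 (0.119). Amd1 averaged 497 ± 142 CPM in labelled-knockout and 899 ± 94.4 CPM in control gastrocnemius (SD, n = 4 and 5), and its log2 fold change, -0.85 (SE 0.20), missed the threshold (edgeR adjusted p = 0.052). Ordered by level, the labelled-knockout gastrocnemius libraries ran 7, 6, 2 and 9 for both Mstn and Mss51. The same order held for Gdf11 and Tcap, described below, so it was not particular to this pair.

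Activin A's gene Inhba (ENSMUSG00000041324, chromosome 13) was expressed at a low level in both muscles. It lay at 1.03, 1.07, 2.54 and 1.7 CPM in labelled-knockout soleus libraries 35, 39, 40 and 42, against 1.2, 0.597, 0.991, 1.12 and 0.986 CPM in control soleus libraries 34, 36, 37, 38 and 41. In the gastrocnemius it was at 1.08, 1.01, 1.04 and 1.35 CPM in labelled-knockout libraries 2, 6, 7 and 9, against 1.23, 0.723, 0.59, 0.478 and 0.948 CPM in control libraries 1, 3, 4, 5 and 8. The groups overlapped in each muscle. The log2 fold changes were 0.70 in soleus (SE 0.29, 95% interval 0.13 to 1.28, adjusted p = 0.561) and 0.49 in gastrocnemius (SE 0.29, interval -0.08 to 1.06, adjusted p = 0.41), and neither passed. Between the muscles Inhba was not called in either genotype (adjusted p = 0.432 in controls and 0.219 in libraries labelled knockout).

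Of the antagonists, Fst (ENSMUSG00000021765, chromosome 13) was higher in soleus than in gastrocnemius in libraries labelled knockout. Soleus libraries 35, 39, 40 and 42 held 6.86, 4.61, 7.32 and 8 CPM, and gastrocnemius libraries 2, 6, 7 and 9 held 3.59, 4.24, 4.91 and 4.16 CPM. Soleus library 39 lay inside the gastrocnemius range and the other 3 were above it. The log2 fold change was 0.66 (SE 0.16, edgeR adjusted p = 0.0027). In controls the gap was 0.31 (SE 0.15, adjusted p = 0.0829) and missed the threshold, although it passed with a minimum count of 50 (0.0495). That control gap passed as well without control gastrocnemius 8 (0.41, adjusted p = 0.0348) or labelled-knockout soleus 39 (0.31, adjusted p = 0.0464). The knockout effect on Fst in soleus, less that in gastrocnemius, was 0.35 (SE 0.22, adjusted p = 0.985). Between genotypes Fst had log2 fold changes of 0.43 in soleus (SE 0.15, 95% interval 0.13 to 0.72, adjusted p = 0.467) and 0.07 in gastrocnemius (SE 0.16, interval -0.25 to 0.38, adjusted p = 0.874).

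Fstl3 (ENSMUSG00000020325, chromosome 10) had the lowest mean per kilobase of the 10 genes in every group. Its libraries overlapped those of the next gene in all groups but labelled-knockout gastrocnemius. It lay at 0.567 to 0.94 CPM in labelled-knockout soleus, 0.665 to 1.18 CPM in control soleus, 0.38 to 1.08 CPM in labelled-knockout gastrocnemius and 0.345 to 1.68 CPM in control gastrocnemius. The counts behind these values were 16 to 78 per library. No comparison called Fstl3, and its knockout interval in gastrocnemius ran from -1.03 to 0.63 on the log2 scale. Of its 2445 listed bases, 1157 overlap exons of Prss57, on the other strand, which had a mean count 4.76% of that of Fstl3. Whether counting used strand is not stated, so reads in the overlap cannot be assigned and the level per kilobase is uncertain.

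Among the receptors, Acvr1b (ENSMUSG00000000532, chromosome 15, 101174067 to 101213679), a type I receptor for myostatin and activin, was the one that differed most between the muscles. In controls it lay at 19.9, 24.6, 17.5, 21.9 and 26.1 CPM in soleus libraries 34, 36, 37, 38 and 41, against 76.6, 79.8, 75.4, 85.7 and 62.5 CPM in gastrocnemius libraries 1, 3, 4, 5 and 8. The groups were far apart, with a level 3.45-fold lower in soleus (log2 fold change -1.79, SE 0.11, adjusted p = 2.47e-11). In libraries labelled knockout the soleus held 19.5, 15.4, 20.7 and 20.2 CPM and the gastrocnemius 67.3, 52.4, 58 and 61.6 CPM, 3.16-fold lower in soleus (log2 fold change -1.66, SE 0.12, adjusted p = 9.27e-10).

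Between genotypes in the gastrocnemius, those Acvr1b levels overlapped at 1 point, since labelled-knockout library 2 (67.3 CPM) was above control library 8 (62.5 CPM). The log2 fold change was -0.34 (SE 0.09, 95% interval -0.53 to -0.16) and just missed the threshold (edgeR adjusted p = 0.059). It passed with DESeq2 (0.0188), with no low-count filter (0.00609), without labelled-knockout library 2 (0.0211) and without control library 8 (0.0269). In the soleus the log2 fold change was -0.21 (SE 0.12, interval -0.45 to 0.03, adjusted p = 0.717).

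The type II receptors were less divided. Acvr2a (ENSMUSG00000052155, chromosome 2) lay at 24, 23.8, 26, 25.2 and 25.7 CPM in control soleus, against 36.7, 36.9, 35, 34.9 and 37.8 CPM in control gastrocnemius. All soleus values were below all gastrocnemius values, 1.46-fold lower (log2 fold change -0.54, SE 0.07, adjusted p = 7.99e-07), and in libraries labelled knockout the soleus was 1.26-fold lower (log2 fold change -0.34, SE 0.08, adjusted p = 0.00124). Exons of Acvr2a overlap those of Orc4, on the other strand, over 446 bases, and Orc4 had a mean count 38.06% of that of Acvr2a. No source states whether counting used strand, so reads in the overlap cannot be assigned.

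Acvr2b (ENSMUSG00000061393, chromosome 9) was lower in soleus in libraries labelled knockout. There it lay at 8.05, 7.69, 8.56 and 8.36 CPM in soleus and 9.76, 10.5, 13.1 and 12.8 CPM in gastrocnemius, without overlap (log2 fold change -0.50, SE 0.15, adjusted p = 0.0109). In controls the gap was -0.30 (SE 0.13, adjusted p = 0.0655), which passed with DESeq2 (0.0377), limma voom (0.0474) and median-ratio size factors (0.04). It passed as well without control gastrocnemius 3 (0.0344), labelled-knockout gastrocnemius 7 (0.0391) or control soleus 41 (-0.43, adjusted p = 0.0074), and the test of the difference between the 2 gaps did not pass (adjusted p = 1). In the gastrocnemius Acvr2b had a positive knockout fold change where Acvr2a had a negative one: 0.33 for Acvr2b (SE 0.11, 95% interval 0.10 to 0.55, adjusted p = 0.129) and -0.17 for Acvr2a (SE 0.08, interval -0.32 to -0.02, adjusted p = 0.256). Neither passed, and in the soleus they were 0.14 (SE 0.15) and 0.05 (SE 0.07).

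**Figure D2:**
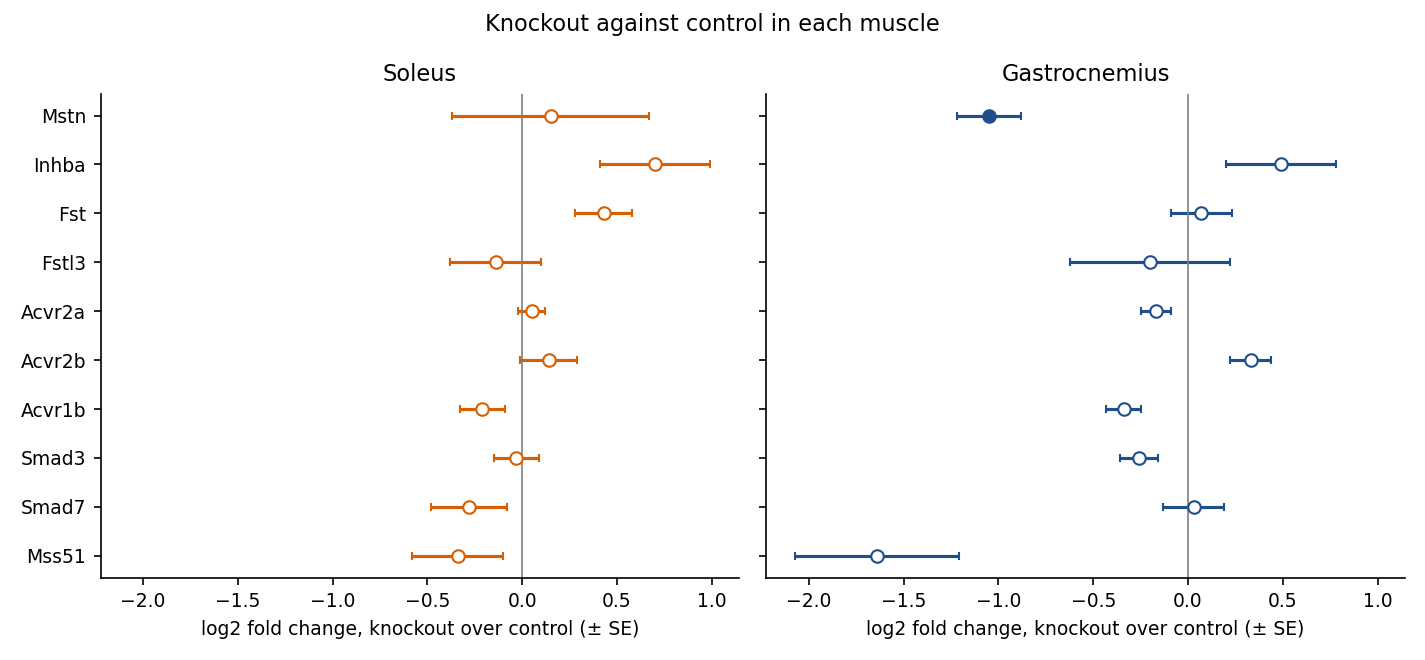
Log2 fold changes of the 10 genes, knockout over control, with SE bars from the edgeR fits, in soleus (left) and gastrocnemius (right) on one scale; filled points passed an adjusted p of 0.05. Mstn in the gastrocnemius (-1.05) is the only filled point, and Mss51 there (-1.64) has the most negative value.

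Smad3 (ENSMUSG00000032402, chromosome 9), which carries the myostatin and activin signal, was among the most expressed members in both muscles. In controls it lay at 77.5, 68.3, 54.7, 60.6 and 71.8 CPM in soleus libraries 34, 36, 37, 38 and 41, against 84, 84.8, 103, 87.7 and 116 CPM in gastrocnemius libraries 1, 3, 4, 5 and 8. The groups did not overlap, with a level 1.43-fold lower in soleus (log2 fold change -0.51, SE 0.11, adjusted p = 0.000724). In libraries labelled knockout the gap was -0.29 (SE 0.13, adjusted p = 0.0734), with 53.7 to 80.1 CPM in soleus and 71.3 to 87.1 CPM in gastrocnemius, and it passed without soleus library 40 (-0.41, adjusted p = 0.0123). Its knockout fold changes were -0.03 in soleus (SE 0.12, adjusted p = 0.974) and -0.26 in gastrocnemius (SE 0.10, 95% interval -0.45 to -0.06, adjusted p = 0.171).

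Smad7 (ENSMUSG00000025880, chromosome 18), the inhibitory SMAD, was the 1 member called higher in control soleus. It lay at 25.3, 23.8, 21.4, 23.5 and 13.2 CPM in control soleus libraries 34, 36, 37, 38 and 41, against 14.5, 13, 17.5, 12 and 12.3 CPM in control gastrocnemius libraries 1, 3, 4, 5 and 8. Soleus library 41 lay within the gastrocnemius range and the other 4 were above it (log2 fold change 0.63, SE 0.19, adjusted p = 0.00958). In libraries labelled knockout the soleus held 23.5, 16.7, 15.1 and 14.9 CPM and the gastrocnemius 14.9, 14.5, 9.69 and 17.3 CPM, and the gap of 0.31 (SE 0.21, adjusted p = 0.256) missed the threshold. Between genotypes Smad7 had log2 fold changes of -0.28 in soleus (SE 0.20, 95% interval -0.67 to 0.10, adjusted p = 0.777) and 0.03 in gastrocnemius (SE 0.16, interval -0.28 to 0.34, adjusted p = 0.952). Muscles differed in other cells too: in control soleus 6 of 6 endothelial markers were called higher and 5 of 7 fibroblast markers lower than in control gastrocnemius, beside 27.4% and 21.9% of all genes. Their part in the muscle gaps of these genes was not tested.

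**Figure D3:**
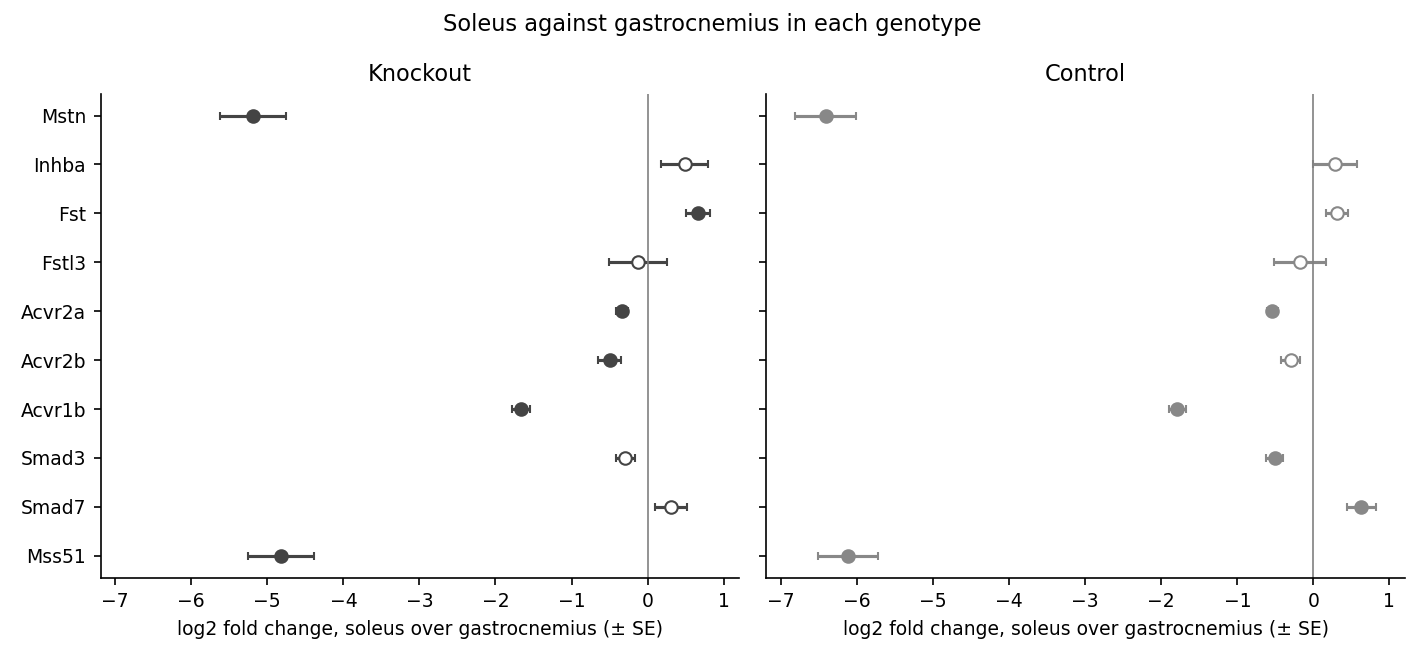
Log2 fold changes of the 10 genes, soleus over gastrocnemius, with SE bars from the edgeR fit of 18 libraries, in libraries labelled knockout (left) and in controls (right) on one scale; filled points passed an adjusted p of 0.05. Mstn and Mss51 lie at -5.19 and -4.82 in knockout and -6.41 and -6.12 in control, and Acvr1b is the next most negative in both.

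Levels of different genes were compared as CPM per kilobase of listed gene length. In the soleus Smad3 led, at 11.7 in labelled-knockout and 12 in control libraries, and did not overlap the next gene. Acvr1b, Acvr2a, Acvr2b and Smad7 followed at 3.88 to 4.66 CPM per kilobase in labelled-knockout soleus and 4.25 to 4.99 in control soleus, and neighbours in that order overlapped. Fst came next (2.87 and 2.14), and Mss51 (0.744 and 0.953), Inhba (0.8 and 0.495), Mstn (0.418 and 0.383) and Fstl3 (0.315 and 0.35) were last. In control gastrocnemius Mss51 (65.4 CPM per kilobase) and Mstn (31.8) stood above all others without overlap, followed by Acvr1b and Smad3 (both 17.2), which overlapped. In labelled-knockout gastrocnemius Mss51 (20.9), Mstn (15.4), Smad3 (14.4) and Acvr1b (13.6) each overlapped the next. In both gastrocnemius groups Acvr2a and Acvr2b (5.24 to 6.57 CPM per kilobase), then Smad7, Fst, Inhba and Fstl3 came after these. The means of the 2 type II receptors stood in opposite order in the genotypes there. Acvr2b was at 6.57 and Acvr2a at 5.68 CPM per kilobase in labelled-knockout libraries, which overlapped, against 5.24 and 6.38 in controls, which did not. Neither receptor was called between genotypes, and Acvr2a reads in exons shared with Orc4 cannot be assigned.

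**Figure D4:**
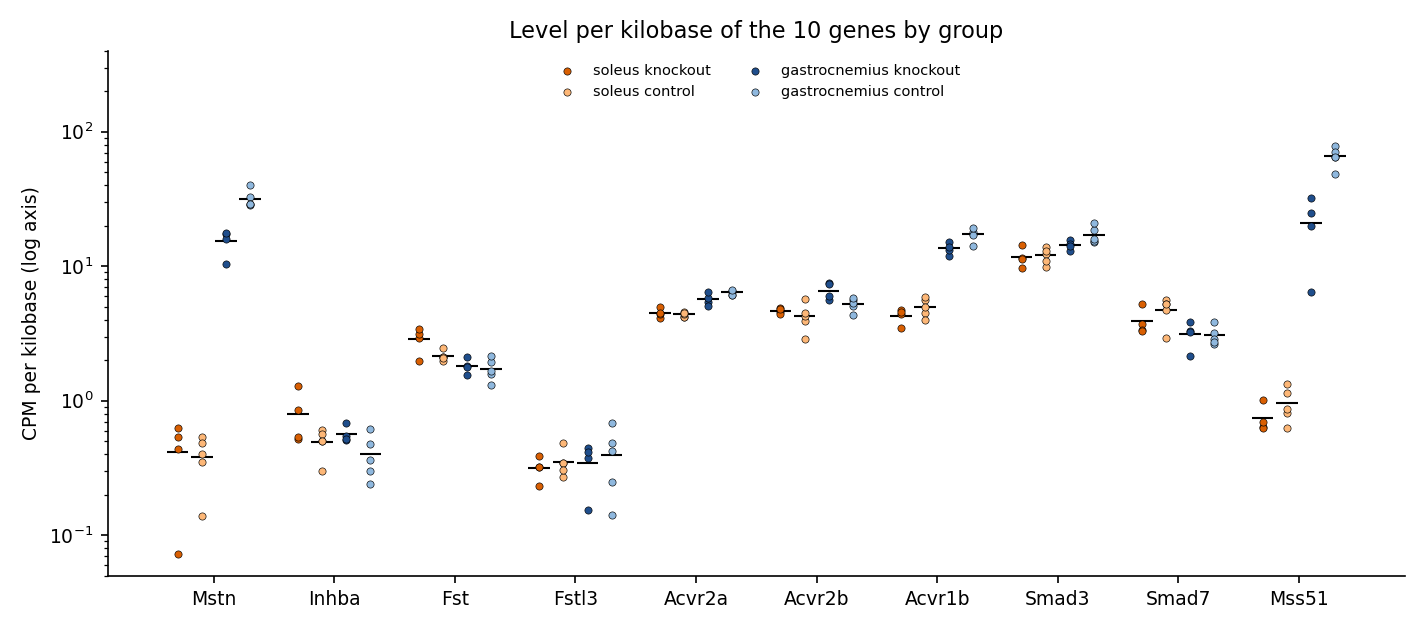
Level of each of the 10 genes in CPM per kilobase of gene length on a log axis; points are single libraries coloured by group and bars are group means. Mss51 and Mstn lead in gastrocnemius (65.4 and 31.8 in control) and are at most 1.33 in every soleus library, while Smad3 leads in soleus (11.7 in labelled-knockout and 12 in control).

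Beyond the 10 genes, 91 other genes of the pathway and of the setting of Mss51 were followed as 7 lists, of which 82 were tested in the gastrocnemius and 84 in the soleus. In the gastrocnemius 1 rose and 6 fell in libraries labelled knockout, with a median log2 fold change of -0.01. These 7 are 8.54% of the list genes tested, beside 3.78% of all genes. The lists were chosen with earlier results of these data known, so this share and those below are not a test of the pathway. In the soleus none was called by edgeR, beside 0.0553% of all genes, with a median of 0.03. At an unadjusted p under 0.05 there were 13 in soleus (15.5%, beside 8.19% of all genes) and 31 in gastrocnemius (37.8%, beside 18.6% of all genes). DESeq2 called 1 in soleus (1.19%, beside 0.918% of all genes), the SMAD corepressor Tgif1, and 13 in gastrocnemius (15.9%, beside 7.53% of all genes). Of the 14 other ligand and processing genes tested in the gastrocnemius, 1 rose and 2 fell. Gdf11, the closest relative of myostatin, fell to 13.8, 11, 9.27 and 15.9 CPM in labelled-knockout libraries 2, 6, 7 and 9, against 20.9, 21.3, 20.8, 20.7 and 17.5 CPM in control libraries 1, 3, 4, 5 and 8 (log2 fold change -0.69, SE 0.14, adjusted p = 0.0173). The groups did not overlap. In the soleus the knockout fold change of Gdf11 was 0.25 (log2, SE 0.13, adjusted p = 0.681), and that effect less the one in gastrocnemius was 0.94 (SE 0.18), which missed the threshold by edgeR (adjusted p = 0.0517) and was called by DESeq2. Like Mstn, it was lower in soleus, at 3.21 to 4.08 CPM in control soleus against 17.5 to 21.3 CPM in control gastrocnemius (log2 fold change -2.52, SE 0.13, adjusted p = 4.54e-13).

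Tgfb1, a TGF-beta ligand, rose in labelled-knockout gastrocnemius (log2 fold change 0.55, SE 0.11, adjusted p = 0.015). It lay at 13.1, 17.6, 20.2 and 16.8 CPM against 11.9, 11.6, 12.4, 11.1 and 10.8 CPM in controls, without overlap. It was highest in library 7, where macrophage markers were also highest. In labelled-knockout libraries 2, 6 and 9 the summed macrophage markers were 108 to 115 CPM, inside the control range of 82.7 to 118 CPM. The part of these markers in the Tgfb1 level was not tested. Tcap, the titin cap protein that binds myostatin, fell to 1410 to 1830 CPM, against 1880 to 2360 CPM in controls (log2 fold change -0.41, SE 0.09, adjusted p = 0.0263). Of 11 other receptors and coreceptors 1 fell, the BMP type I receptor Bmpr1b (5.89 to 7.89 CPM in labelled-knockout against 8.15 to 10.9 CPM in control libraries, adjusted p = 0.0398), and DESeq2 also called Tgfbr1, a TGF-beta type I receptor (edgeR log2 fold change -0.23, SE 0.07, adjusted p = 0.0786). Of 8 other antagonists 1 fell, Wfikkn2, which binds myostatin and GDF11 (6.73 to 9.47 CPM in labelled-knockout against 9.32 to 15.2 CPM in control libraries, adjusted p = 0.0381). Of 14 other SMADs and regulators 2 fell, Zfyve9, which presents SMAD2 and SMAD3 to the receptors (log2 fold change -0.30, SE 0.06, adjusted p = 0.0219), and the phosphatase Ppm1a, which acts on these SMADs (-0.28, SE 0.06, adjusted p = 0.0184). DESeq2 also called the ubiquitin ligase gene Nedd4l there (edgeR log2 fold change 0.28, SE 0.08, adjusted p = 0.0654).

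Several of these calls stood near the threshold and were lost when 1 library was left out, while each fold change kept its direction and about its size. Gdf11 (log2 fold change -0.83 to -0.58 without 1 library) and Tgfb1 (0.46 to 0.65) lost theirs without labelled-knockout library 6 (adjusted p = 0.0649 and 0.0563). Ppm1a (-0.31 to -0.27) did without control 5 or labelled-knockout 6 (0.0543 and 0.0606), and Zfyve9 (-0.34 to -0.27) without control 1 or 5 or labelled-knockout 6, 7 or 9 (0.0578 to 0.0675). Tcap (-0.48 to -0.36) did without control 4, 5 or 8 or labelled-knockout 6 or 7 (0.0532 to 0.0994). Wfikkn2 (-0.64 to -0.47) did without control 1, 4, 5 or 8 or labelled-knockout 6 or 9 (0.065 to 0.129) and with limma voom (0.0564). Bmpr1b (-0.61 to -0.44) did without any single library other than labelled-knockout 6 (0.0518 to 0.101) and with both muscles fitted together (0.0935). The number of all genes called also dropped without most single libraries, to as few as 206.

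A list of 12 textbook SMAD3 response genes also held Id1 and Id3, and whether SMAD3 induces each gene in muscle was not tested. In soleus Id1 averaged 13.7 CPM in labelled-knockout and 17.2 CPM in control libraries, and Id3 17.2 and 18.7 CPM. Of the 12 genes none was called in either muscle by edgeR, with 3 in soleus and 5 in gastrocnemius at an unadjusted p under 0.05. Their median log2 fold changes were 0.15 in soleus and 0.14 in gastrocnemius, with 10 and 7 of 12 positive; the smallest p belonged to Ltbp2 in soleus (0.56, SE 0.17, adjusted p = 0.383) and to Timp1 in gastrocnemius (1.46, SE 0.41, adjusted p = 0.0642). Timp1 passed with DESeq2 (0.0156) and with no low-count filter (0.0121), as well as without control 1 (0.0377) or labelled-knockout 2 (0.0487), and Syn1, which overlaps it on the other strand without shared exons, had a mean count 54.65% of its own. Of 13 genes of growth control below myostatin none was called by edgeR, with 2 in soleus and 4 in gastrocnemius at an unadjusted p under 0.05. The smallest p belonged to Igf1, a muscle growth factor, in soleus (0.41, SE 0.17, adjusted p = 0.562) and to the ubiquitin ligase Fbxo30 in gastrocnemius (0.29, SE 0.08, adjusted p = 0.0604), which DESeq2 called (0.0335) with 2 others there, Eif4ebp1 and Irs1, and none in soleus. A list for cytochrome oxidase I synthesis and assembly was followed because the yeast relative of Mss51 serves there. It also held Ppargc1a, which encodes a coactivator and not an assembly factor. Of its 11 tested genes none was called by edgeR or DESeq2, with 0 in soleus and 2 in gastrocnemius at an unadjusted p under 0.05. The smallest p were those of mt-Co1 in soleus (0.15, SE 0.10, adjusted p = 0.742) and Coa3 in gastrocnemius (-0.27, SE 0.09, adjusted p = 0.131).

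**Figure D5:**
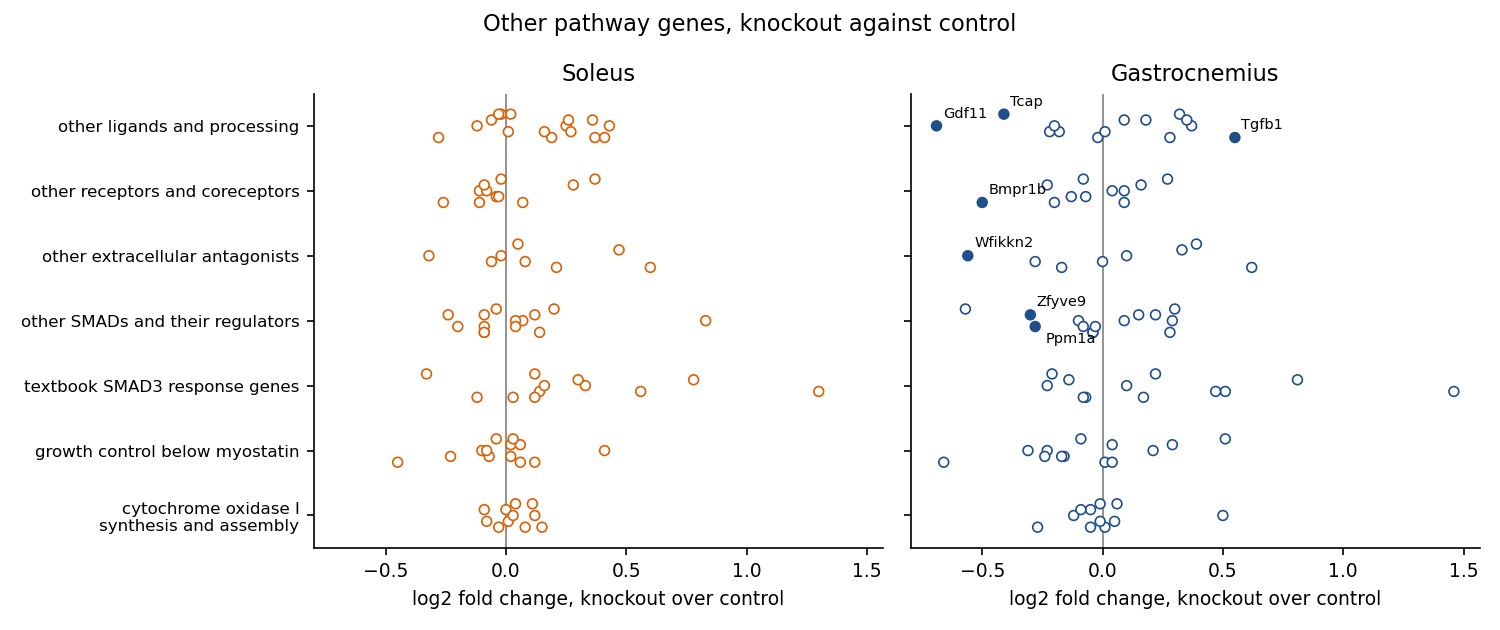
Log2 fold changes, knockout over control, of the other pathway genes by list, in soleus (left) and gastrocnemius (right); each point is a tested gene, and filled, named points passed an adjusted p of 0.05 over all genes. In the gastrocnemius Tgfb1 is the only filled point above 0 and 6 lie below it, and in the soleus there is none.

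Between the muscles, 24 of the 84 tested list genes were called higher and 25 lower in control soleus (median log2 fold change 0.03), beside 27.4% and 21.9% of all genes. In labelled-knockout soleus 20 were called higher and 19 lower (median 0.05), beside 19.2% and 18.5% of all genes. Among the genes named above, Bmpr1b was higher in soleus in controls (log2 fold change 0.94, SE 0.15) and in libraries labelled knockout (1.17, SE 0.17). Zfyve9 was lower in soleus in both (-0.91, SE 0.07, and -0.70, SE 0.07), and Tcap was higher in both (0.31, SE 0.10, and 0.43, SE 0.11). The comparisons of the muscles and of the genotypes share libraries, so their values are given side by side and not as independent evidence.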

How the data were processed

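Each deposited file holds read counts per Ensembl gene beside the CPM and RPKM derived from them, per the file headers. The submitters' processing notes name STAR 2.5.1a, bcl2fastq, featureCounts 1.4.6-p5 and Subread, with build GRCm38. No source used here states the annotation release, the strand setting or how multi-mapped reads were counted. The deposited CPM matched the counts rescaled by the library total to within 4.9e-10, and the deposited RPKM matched those values per kilobase to within 4.1e-10; the tests used the counts. Symbols from GENCODE mouse release M21 matched 40254 of 41388 features (97.3%).

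Counts were fitted with edgeR 4.0.16 in R 4.3.3 (TMM scaling, filterByExpr with minimum count 10 and minimum total 15, robust quasi-likelihood F-test, Benjamini-Hochberg adjustment over all genes tested, threshold 0.05). Every adjusted p is from edgeR unless another tool is named. Knockout comparisons used the 9 libraries of a muscle; comparisons of muscles and of knockout effects used all 18 in 4 groups. SE is the size of the log2 fold change divided by the root of F, and 95% intervals are normal ones from that SE, unadjusted. Levels are CPM on TMM sizes over 18 libraries. Likeness used log2 of CPM plus 0.5. Alternatives were DESeq2 1.42.0, limma 3.58.1 voom, median-ratio size factors, other low-count filters, other sets of libraries, a replicate block (added later) and leaving out each library. The fit was tested on simulated data. No 2 libraries of a group agreed within sampling noise (17.75 to 125.07 chi-square per gene), so none was merged.

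Named were all 10 genes, the other pathway genes called in a knockout comparison, the gene of smallest p in a list with none, and the 5 genes closest to Mstn and to Mss51; genes called only by DESeq2 were named after their values were seen. The genes and lists were chosen with earlier results of these data known. Further marker lists (tendon, adipocyte, red blood cell, smooth muscle, Schwann cell, satellite cell and skeletal muscle fibre) had 2 calls in the gastrocnemius knockout comparison, Pax7 higher and Cdh15 lower.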

Additional observations from a re-analysis of the deposited data

Results flagged for a closer look

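Of 40 groups of libraries checked (the 10 genes in 4 groups), 1 held a library far from the others: Fst in control soleus library 38, at 5.74 CPM against 4.65 to 4.92 CPM in the other 4 control soleus libraries. Chance flags about 1 in 20 such groups. No gene of the 10 had a knockout effect that differed between the muscles by the test of that difference.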

How the results depend on the processing

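Direction and call held for the muscle comparisons of Mstn and Mss51 under every alternative run. In the gastrocnemius knockout comparison the number of the 10 genes called was 1 and became 3 with DESeq2 and 2 with limma voom or no low-count filter, and 1 to 2 without a single library. Mss51 passed with DESeq2 (log2 fold change -1.65), limma voom (-1.83) and all 18 libraries (-1.64), and ranged from -1.93 to -1.34 without a single library. Mstn missed the threshold with all 18 libraries (-1.05). All genes called there numbered 619, against 1235 with DESeq2 and 206 to 1080 without a single library. In the soleus they were 10, against 166 with DESeq2, 48 with no low-count filter, 28 with all 18 libraries and 3 to 66 without a single library; for the difference of knockout effects they were 13, against 52 with DESeq2, 7 with limma voom and 2 to 23. The soleus knockout fold change of Mstn turned to -0.02 with limma voom and ranged from -0.13 to 0.50 without a single library. Values near 0 that changed sign without a single library were those of Fst (-0.02 to 0.16), Fstl3 (-0.42 to 0.10) and Smad7 (-0.08 to 0.17) in gastrocnemius, and Smad3 (-0.14 to 0.05) in soleus. So did Inhba (-0.11 to 0.37) and Fstl3 (-0.25 to 0.28) in the difference of effects, and Fstl3 between muscles in controls (-0.41 to 0.12) and in libraries labelled knockout (-0.38 to 0.01). By Pearson r, 2 of the 5 genes closest to Mstn and 0 of those closest to Mss51 remained. Mstn and Mss51 dropped out of each other's 5. The cause of these changes was not tested. A replicate block that pairs libraries whose title numbers are 33 apart was added after the data were seen; no label states this pairing. Deviations from the group means correlated at 0.08 to 0.43 over genes within these pairs, above 0.1 in 7 of 9, and each gastrocnemius library correlated best with its own soleus number in 9 of 9, a hint from the data and not the design. With this block, genes called for the difference of knockout effects numbered 32, none of them among the 10; Mstn and Mss51 stayed called between the muscles, and Acvr2b passed in controls (-0.32, adjusted p = 0.00721). The knockout comparisons within a muscle have no pairs to block on.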
